A study of Mus musculus with 18 samples.

Results

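Matricellular proteins and small proteoglycans of muscle were followed through 10 genes measured by bulk RNA-seq of mouse quadriceps. The genes were picked by symbol from the 48709 genes listed in every library. Postn, Spp1, Tnc, Thbs1, Thbs2, Sparc and Fn1 encode matrix glycoproteins, and Bgn, Dcn and Lum encode small leucine-rich proteoglycans. All 10 were found and passed the filter on low counts in every fit. The dyW mice (B6.129S1(Cg)-Lama2tm1Eeng/J) carry a knock-out of Lama2, which encodes the laminin alpha 2 chain of the basement membrane around muscle fibres. They model LAMA2-related congenital muscular dystrophy. The healthy controls were C57BL/6J (WT) mice. The labels speak of hemizygous mutants in the colony and give no zygosity for the mice that were measured. An untreated cohort with an age label of 5 weeks held WT (n = 3) and dyW (n = 4) mice. A treatment cohort held WT PBS (n = 3), dyW PBS (n = 3), WT TD139 (n = 2) and dyW TD139 (n = 3) mice. Its age label is 3 weeks, whereas its protocol places tissue collection at 5 weeks. TD139 inhibits galectin-3, a lectin that binds beta-galactosides, and PBS is taken as its vehicle from the library names. Dose, route and duration are not given in the labels. Each library came from 1 mouse with its own animal number, and every group held both sexes.

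Matricellular proteins are secreted into the extracellular matrix, where they act on cell adhesion and signalling more than as load-bearing fibres. Many are scarce in resting adult tissue and are made after injury, by fibroblasts (periostin, tenascin-C) or by macrophages and other cells (osteopontin). Small leucine-rich proteoglycans carry sulfated sugar chains on a leucine-rich core. They bind collagen fibrils, and decorin and biglycan also bind the growth factor TGF-beta. The chains are chondroitin or dermatan sulfate on decorin and biglycan and keratan sulfate on lumican.

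The 250 bases before the gene start are shown for the 3 members with the largest fitted genotype differences in untreated muscle, a choice made after their values were seen. The sequences are those of RefSeq on GRCm38.p6, whose table held 6 of the 10 members. They run 5′ to 3′ on the strand of the gene, and capitals mark the motifs TATAAA (the TATA box), CCAAT and GGGCGG (the GC box) found on either strand.
Postn, chr3:54360857-54361106, plus strand: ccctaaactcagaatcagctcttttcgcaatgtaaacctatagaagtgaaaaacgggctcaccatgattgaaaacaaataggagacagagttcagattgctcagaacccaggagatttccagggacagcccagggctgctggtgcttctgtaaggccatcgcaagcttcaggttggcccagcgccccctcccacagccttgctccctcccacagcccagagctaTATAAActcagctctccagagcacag
Spp1, chr5:104434861-104435110, plus strand: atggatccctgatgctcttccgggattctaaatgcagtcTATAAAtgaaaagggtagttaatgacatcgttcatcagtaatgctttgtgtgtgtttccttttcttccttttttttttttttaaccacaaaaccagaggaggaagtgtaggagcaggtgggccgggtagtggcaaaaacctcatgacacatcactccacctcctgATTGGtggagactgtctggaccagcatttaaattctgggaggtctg
Bgn, chrX:73483351-73483600, plus strand: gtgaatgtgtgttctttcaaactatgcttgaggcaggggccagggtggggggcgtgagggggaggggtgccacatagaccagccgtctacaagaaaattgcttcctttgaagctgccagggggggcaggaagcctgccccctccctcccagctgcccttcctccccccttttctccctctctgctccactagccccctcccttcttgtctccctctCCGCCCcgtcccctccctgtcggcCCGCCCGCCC
Postn and Spp1 each had 2 listed starts, and the downstream one was used for Postn and the upstream one for Spp1. The Postn stretch held TATAAA with its first base 26 bases before the start used. The Spp1 stretch held TATAAA at 211 bases and CCAAT, on the other strand, at 46 bases before the start. The Bgn stretch held 3 matches to GGGCGG on the other strand, at 34, 10 and 6 bases before the start, of which the last pair overlap. Of 32851 promoter stretches of the same length, 12.4% held TATAAA, 33.8% held CCAAT and 32.7% held GGGCGG. A match describes the letters and not a site that is used.

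In mm10, Postn lay at chr3:54361109-54391037, Spp1 at chr5:104435118-104441050 and Bgn at chrX:73483602-73495933, all on the plus strand. Dcn (chr10:97479500-97518162) and Lum (chr10:97565501-97572703) were neighbours on the plus strand, with 47338 bases between the end of Dcn and the start of Lum. Thbs1 lay at chr2:118111876-118127133 on the plus strand. On the minus strand were Tnc (chr4:63959785-64047015), Thbs2 (chr17:14665500-14694262), Sparc (chr11:55394500-55420080) and Fn1 (chr1:71585520-71653200). Nearly all exon reads of the members mapped uniquely. The gene overlapping Tnc on the opposite strand, 8030451A03Rik, held at most 6 reads in a library, against at least 197 for Tnc.

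Libraries held 15.8 to 45.2 M exon reads. Sequencing was paired-end, and the sources used here do not say if the counted unit was the single read or the pair. The untreated WT libraries had 32.9 to 37.7 M, the untreated dyW libraries 35.7 to 45.2 M, the WT PBS libraries 35.2 to 42.6 M and the dyW PBS libraries 15.8 to 38.9 M. With TD139 the depth was 33.1 to 34.2 M for WT and 38.7 to 39.6 M for dyW. Lama2, the targeted gene, stood at 2.18 to 5.02 RPKM (reads per kilobase of exon and per M reads) in the WT libraries and at 0.545 to 1.10 RPKM in the dyW libraries. Its level therefore followed the genotype labels in all 18 libraries. WT PBS replicate 1 stood apart from replicates 2 and 3: the chi-square per gene between its counts and theirs was 334.4 and 291.3, against 64.4 between replicates 2 and 3. In untreated dyW, replicates 1 and 2 (99.5 between them) and replicates 3 and 4 (47.0) were closer to each other than across these pairs (200.6 to 247.0). No libraries were alike within sampling noise, since this value was at least 34.9 in every pair of a group.

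**Figure D1:**
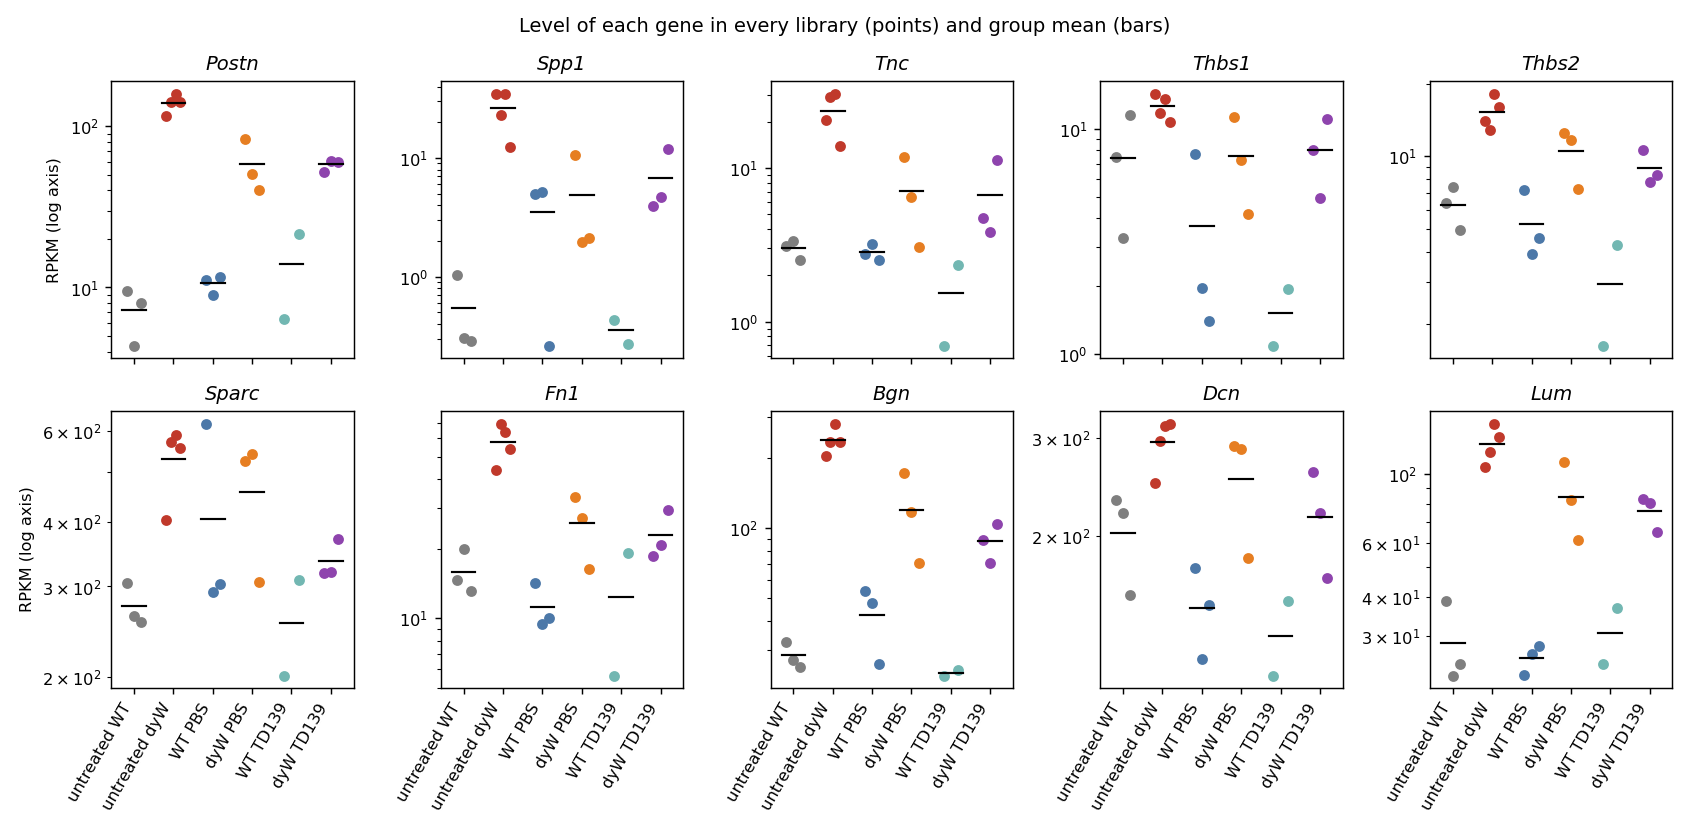
Level of each of the 10 genes in RPKM (log axis, a separate scale per gene) in every library of the 6 groups; points are libraries and bars are group means. In untreated dyW all libraries of Postn sit between 115 and 159, above every WT library, whereas the lowest dyW library of Thbs1 (10.7) is below its highest WT library (11.5).

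In untreated dyW quadriceps, 7 of the 10 genes rose relative to untreated WT and none fell, by edgeR's quasi-likelihood test with Benjamini-Hochberg adjustment over 14846 genes. Calls were common in this comparison, at 49.8% of all genes tested and 24.7% for higher genes. Spp1, Postn, Bgn and Tnc rose most, followed by Lum, Fn1 and Thbs2, while Sparc, Thbs1 and Dcn did not pass. The median log2 fold change of the 10 genes was 1.45, against 0.03 over all genes tested. The 10 genes were chosen with earlier results of these data known, so their count and median are description only. In the authors' deposited table the log2 fold change ran from 5.07 for Spp1 to -0.03 for Dcn, and Sparc, Thbs1 and Dcn were at FDR-adjusted p of 0.299, 0.728 and 0.927.

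Postn encodes periostin, which binds integrins and collagen. It was at 9.46, 4.35 and 8.02 RPKM in the 3 untreated WT libraries and at 115, 141, 159 and 141 RPKM in the 4 untreated dyW libraries. The groups were far apart, and Postn rose by a log2 fold change of 3.72 (SE 0.26, adjusted p = 0.000109), or 13.2-fold after TMM scaling. Spp1 encodes osteopontin, a phosphoprotein ligand of integrins and of CD44. Untreated WT libraries held Spp1 at 1.04, 0.303 and 0.285 RPKM, from 61, 19 and 19 reads. The dyW libraries held it at 34.9, 23.1, 34.7 and 12.3 RPKM, from 772 to 2764 reads. Spp1 was thus the lowest of the 10 in WT, and it rose by 5.09 (SE 0.54, adjusted p = 0.000279), the largest fitted difference of the 10, although its 4 dyW libraries spanned nearly 3-fold. Tnc encodes tenascin-C, a large hexameric glycoprotein found at muscle-tendon junctions and in wounds. It was at 3.10, 3.36 and 2.54 RPKM in WT and at 20.8, 29.2, 30.8 and 14.0 RPKM in dyW. The lowest dyW library of Tnc was still above every WT library, and Tnc rose by 2.42 (SE 0.27, adjusted p = 0.00031).

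Thrombospondin-1 and thrombospondin-2 are trimers that bind CD36 and CD47, and thrombospondin-1 can activate latent TGF-beta. Thbs2 was at 6.39, 7.43 and 4.92 RPKM in untreated WT and at 14.0, 12.9, 18.2 and 15.98 RPKM in untreated dyW. It rose by 0.73 (SE 0.17, adjusted p = 0.0072), with no overlap between the groups; against a minimum log2 fold change of 0.5 the call was lost (adjusted p = 0.101). Thbs1 was at 7.49, 3.28 and 11.5 RPKM in WT and at 14.3, 11.7, 13.5 and 10.7 RPKM in dyW. The WT libraries of Thbs1 were more spread than the dyW libraries, the groups overlapped, and the log2 fold change was 0.22 (95% interval -0.56 to 1.00, adjusted p = 0.617). The ratio of Thbs2 to Thbs1 in RPKM was 0.984 to 1.49 in dyW and 0.429 to 2.27 in WT, so the ranges overlapped. Sparc encodes osteonectin, a collagen-binding glycoprotein also made by muscle and endothelial cells. Its levels were 304, 263 and 256 RPKM in WT and 403, 571, 589 and 556 RPKM in dyW. The groups did not overlap, but after TMM scaling the log2 fold change was 0.40 (95% interval 0.04 to 0.75) and the adjusted p was 0.0617. Without untreated dyW replicate 1, the lowest of the dyW libraries for Sparc, its log2 fold change was 0.51 with an adjusted p of 0.0177. With all libraries DESeq2 gave Sparc an adjusted p of 0.0103, and limma on log2(RPKM + 0.1), which is not TMM-scaled, gave 0.94 (adjusted p = 0.00288). Sparc passed in only 4 of 16 left-out libraries and other settings. Fn1 encodes fibronectin, which binds integrin alpha 5 beta 1 and serves as a scaffold for other matrix proteins. It was at 14.6, 19.8 and 13.1 RPKM in WT and at 43.6, 69.5, 63.5 and 54.2 RPKM in dyW. Every dyW library of Fn1 was above every WT library, and Fn1 rose by 1.30 (SE 0.22, adjusted p = 0.00177).

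The 3 proteoglycan genes differed from each other in untreated muscle: Bgn and Lum rose and Dcn was not called. Bgn encodes biglycan, which also binds dystroglycan and sarcoglycans at the fibre surface. It was at 32.6, 27.2 and 25.3 RPKM in WT and at 204.5, 236, 282 and 235 RPKM in dyW. Bgn had the smallest standard error of the 10 and rose by 2.53 (SE 0.14, adjusted p = 6.7e-05). Lum, encoding lumican, was at 39.0, 22.3 and 24.2 RPKM in WT and at 106, 118, 146 and 132 RPKM in dyW, and it rose by 1.60 (SE 0.18, adjusted p = 0.000308). Dcn, encoding decorin, was at 232, 219.9 and 157 RPKM in WT and at 248.5, 296, 315 and 318.5 RPKM in dyW. In deposited RPKM the dyW libraries of Dcn were all above the WT libraries. After TMM scaling the groups overlapped and the log2 fold change was -0.01 (95% interval -0.38 to 0.36, adjusted p = 0.97). With limma on log2(RPKM + 0.1) the sign turned and Dcn was past the threshold, at 0.55 (adjusted p = 0.0282). Ratios within a library do not depend on that scaling. Bgn over Dcn was 0.124 to 0.162 in untreated WT and 0.738 to 0.896 in untreated dyW, and Lum over Dcn was 0.101 to 0.168 in WT and 0.398 to 0.462 in dyW. Neither ratio overlapped between the genotypes, so Bgn and Lum stood higher relative to Dcn in every untreated dyW library.

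The scaling mattered because TMM factors were 0.762 to 0.89 in untreated WT and 1.101 to 1.277 in untreated dyW. In deposited RPKM the median log2 fold change of all genes was 0.51, with 7636 genes higher and 1293 lower by limma, against 3671 higher and 3724 lower by edgeR. In RPKM 9 of the 10 genes had no overlap between the untreated groups, where 51.3% of all genes lay wholly higher, and after TMM scaling 8 did, where 25.9% did.

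By level per length, Sparc was the most abundant of the 10 transcripts and Dcn the second in all 6 groups. In untreated WT the order continued with Lum (28.5 RPKM) and Bgn (28.4 RPKM), which overlapped, then Fn1, Thbs1, Postn and Thbs2, of which the last 3 overlapped from each to the next, then Tnc and last Spp1 (0.543 RPKM). In untreated dyW, Bgn (239 RPKM) overlapped with Dcn (294 RPKM), and Postn (139 RPKM) overlapped with Lum (125 RPKM). Spp1 was seventh there at 26.2 RPKM and overlapped with Tnc at 23.7 RPKM, and Thbs1 was last at 12.6 RPKM. Postn over Sparc was 0.0166 to 0.0313 in untreated WT and 0.247 to 0.286 in untreated dyW. Per length, Postn was thus at most 0.0313 of the Sparc level in each untreated WT library and at least 0.247 of it in each untreated dyW library.

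Markers of other cells were read in the same libraries, and only some of the lists moved with the genotype. Calls in these lists stand beside 24.7% of all genes called higher and 49.8% called in either direction. The sums are in deposited RPKM, where the median log2 fold change of all genes was 0.51. Summed RPKM of 11 macrophage markers was 71.4 to 116 in untreated WT and 508 to 713 in untreated dyW, and 10 of the 11 rose. The 10 fibroblast markers summed to 323 to 528 and 592 to 959.7 RPKM, without correction for composition. Their median log2 fold change by edgeR was 0.45, and 3 of them rose, near the 24.7% of all genes that were higher. Those that rose were 5 without untreated dyW replicate 1, and 2 without untreated WT replicate 2 or 3 or untreated dyW replicate 2 or 3. The 9 tenocyte markers summed to 146 to 226 and 529 to 891 RPKM, with 3 higher and 2 lower (2 higher without untreated WT replicate 1 or 2, or untreated dyW replicate 3 or 4). Of that sum Thbs4 alone made a mean of 44.1 RPKM in WT and 503 RPKM in dyW. The median log2 fold change of the 9 was 0.19, with Kera at -2.88 and Mkx at -1.29. The 5 regenerating fibre markers summed to 6.09 to 14.7 and 143 to 243 RPKM, and all 5 rose. Of 8 adult muscle fibre markers 4 fell, whereas without untreated WT replicate 1 there were 3 higher and 5 lower, and without untreated dyW replicate 1 there were 5 lower. Their sum was 40920 to 51480 RPKM in WT and 30680 to 38820 RPKM in dyW. Smooth muscle and pericyte markers had 6 of 7 higher and 1 lower (0 lower without untreated WT replicate 1 or 3, or untreated dyW replicate 1 or 2). Only 5 were higher without untreated WT replicate 2 or 3. Of 6 endothelial markers 2 rose (1 without untreated WT replicate 2 or 3, and 3 without untreated dyW replicate 1). None of 4 adipocyte markers was called by edgeR, but 3 rose without untreated dyW replicate 4. Cartilage and bone markers summed to at most 6.13 RPKM in any untreated library, with Matn1 and Ibsp at 0 in all untreated WT libraries, and of the 4 tested 2 fell (1 without untreated WT replicate 1 or 3, or untreated dyW replicate 1, 2 or 3). Adult fibre markers had the largest sum of these lists in every group. In bulk muscle, fewer cells of a type and less RNA per cell cannot be told apart, and the part of cell makeup in the members' differences was not tested.

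Genes of the same families were read from 5 lists, whose counts stand beside the 49.8% of all genes called in untreated muscle. These lists too were chosen with earlier results of these data known. Of 28 other matricellular and related glycoproteins 22 were tested in untreated muscle, and 14 rose and 1 fell (68.2% called), with a median log2 fold change of 1.09. With a library left out, 10 to 15 rose and 1 fell, the fewest without untreated WT replicate 1. Mgp, a calcification inhibitor of the matrix, was at 3.64 (SE 0.40). Thbs4, a thrombospondin of tendon and muscle, was at 2.95 (SE 0.22), its relative Thbs3 at 1.54 (SE 0.18) and the fibulin gene Fbln2 at 1.11 (SE 0.16). Of 15 other small leucine-rich proteoglycans 13 were tested, and 6 rose and 2 fell (61.5% called, median 0.43). Here 4 to 6 rose and 2 fell with a library left out, the fewest without untreated WT replicate 1 or 3. Aspn (asporin) rose by 1.98 (SE 0.15), Tsku by 1.70 (SE 0.24) and Podn (podocan) by 1.60 (SE 0.24). Kera (keratocan) fell by 2.88 (SE 0.29). Calls in this family thus went in both directions.

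Receptors of the members had 9 of 23 genes higher and 4 lower in untreated dyW (56.5% called), a share near that of all genes. Leaving out a library gave 8 to 11 higher and 3 to 4 lower. Cd44, a receptor of osteopontin and hyaluronan, rose by 1.57 (SE 0.13), the fibronectin receptor subunit Itga5 by 1.30 (SE 0.13) and Stab1, a scavenger receptor for osteonectin, by 1.23 (SE 0.18). Itga4, another fibronectin and osteopontin receptor subunit, fell by 2.38 (SE 0.25). Of 21 tested genes of chondroitin and dermatan sulfate synthesis 11 rose and 3 fell (66.7% called), and 9 to 11 rose and 3 fell with a library left out. The dermatan sulfotransferase gene Chst14 rose by 1.47 (SE 0.21), Chpf2 by 1.204 (SE 0.11) and Chst12 by 1.02 (SE 0.16), and Csgalnact2 fell by 0.72 (SE 0.10). Of 7 tested genes of keratan sulfate synthesis 4 rose and none fell (57.1% called). B3gnt7 rose (adjusted p = 0.00117) but was at 0.00286 ± 0.00495 RPKM (SD, n = 3) in WT and 0.141 ± 0.0395 RPKM (SD, n = 4) in dyW, too low for a fold to be read. The others were Chst1 at 1.36 (SE 0.33), Chst2 at 1.01 (SE 0.24) and B4galt4 at 0.76 (SE 0.16). The median was 0.53 for the receptors, 0.63 for the chondroitin and dermatan list and 0.76 for the keratan list, against 0.03 over all genes. The lists share genes with the tenocyte markers (Thbs4, Comp, Fmod, Chad, Kera) and the fibroblast markers (Smoc2).

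**Figure D2:**
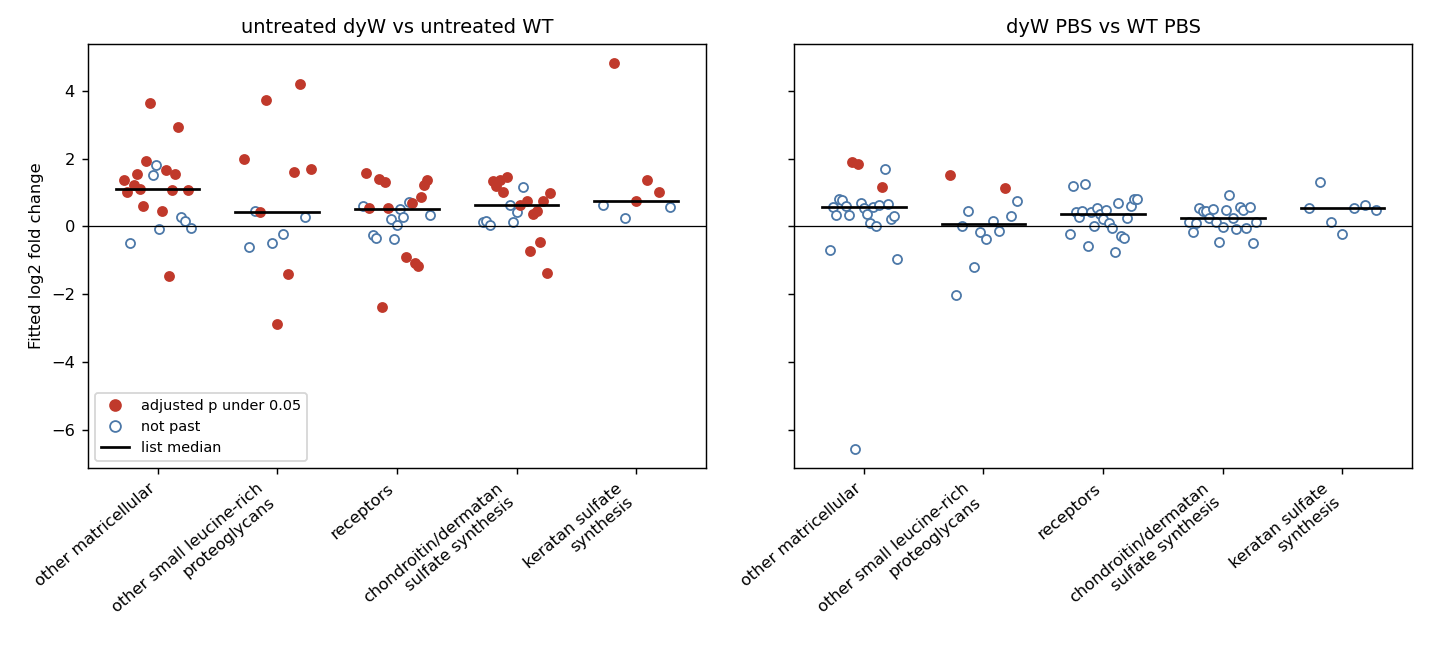
Fitted log2 fold change (vertical axis) of each tested gene in the 5 related lists, in untreated muscle (left) and under PBS (right); filled points passed an adjusted p of 0.05 and bars are list medians. On the left 14 filled points of the other matricellular list are above 0, and on the right 3 are.

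Vehicle-treated mice gave a second look at the genotype, in other animals. In dyW PBS quadriceps, 3 of the 10 genes rose relative to WT PBS and none fell, where 2.68% of 15331 genes tested were called and 2.4% were higher. Postn, Lum and Bgn were the 3. Postn was at 11.1, 9.01 and 11.7 RPKM in WT PBS and at 83.8, 50.2 and 40.3 RPKM in dyW PBS. It rose by 2.13 (SE 0.37, adjusted p = 0.0129). Lum was at 22.4, 26.1 and 27.8 RPKM in WT PBS and at 109, 82.6 and 61.3 RPKM in dyW PBS, and it rose by 1.401 (SE 0.23, adjusted p = 0.0104). Bgn was at 53.9, 47.7 and 26.0 RPKM in WT PBS and at 174, 117 and 70.6 RPKM in dyW PBS. The highest WT library and the lowest dyW library of Bgn were close, and it rose by 1.199 (SE 0.29, adjusted p = 0.0494). The median log2 fold change of the 10 genes was 0.85, against -0.03 over all genes.

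The calls for Postn and Bgn did not hold in every fit with a library left out. Over 16 left-out libraries and other settings the log2 fold change stayed at 1.86 to 2.38 for Postn and 0.92 to 1.47 for Bgn. Without dyW PBS replicate 1, the shallowest library, Postn was at 1.86 (adjusted p = 0.0558) and Bgn at 0.92 (adjusted p = 0.206). Without WT PBS replicate 2, Postn was at 2.06 (adjusted p = 0.0553) and Bgn at 1.35 (adjusted p = 0.0826). Bgn also lost its call without WT PBS replicate 3 (adjusted p = 0.173), without dyW PBS replicate 2 (adjusted p = 0.128) and, narrowly, without WT PBS replicate 1 (adjusted p = 0.0534). Lum stayed past the threshold in each of these fits, with adjusted p of at most 0.0489. Thbs1 was at 7.70, 1.96 and 1.41 RPKM in WT PBS and at 11.2, 7.27 and 4.19 RPKM in dyW PBS, with a log2 fold change of 0.80 (95% interval -0.32 to 1.91). Its high WT value came from replicate 1, the library that stood apart, and without that library Thbs1 was past the threshold at 1.75 (adjusted p = 0.0394).

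The other 6 genes did not pass under PBS. Spp1 was at 5.02, 5.22 and 0.262 RPKM in WT PBS and at 10.6, 1.96 and 2.14 RPKM in dyW PBS. Its levels differed about 20-fold within WT PBS, and the log2 fold change was 0.13 (95% interval -1.65 to 1.91). The 8 cartilage and bone markers, tissues in which osteopontin is abundant, summed to 3.82, 10.3 and 1.41 RPKM in WT PBS replicates 1, 2 and 3, and to 0.639 to 1.90 RPKM in untreated WT. They were thus highest in the pair of WT PBS libraries with high Spp1, and their part in the Spp1 values was not tested. In dyW PBS their sum was 1.85, 3.12 and 0.524 RPKM, highest in replicate 2, where Spp1 was lowest. Tnc was at 2.77, 3.22 and 2.51 RPKM in WT PBS and at 11.8, 6.46 and 3.09 RPKM in dyW PBS, with a log2 fold change of 0.98 (95% interval -0.12 to 2.08). Sparc was at 620.3, 292 and 304 RPKM in WT PBS and at 526, 541 and 305 RPKM in dyW PBS. One WT library of Sparc, replicate 1, was the highest of all 18, and the log2 fold change was -0.09 (95% interval -0.69 to 0.51). Dcn was at 175, 120.2 and 150.2 RPKM in WT PBS and at 291, 287 and 183 RPKM in dyW PBS, with a log2 fold change of 0.48 (95% interval -0.03 to 0.98). Fn1 (9.42 to 14.2 RPKM in WT PBS, 16.4 to 33.6 in dyW PBS) and Thbs2 (3.93 to 7.20 and 7.29 to 12.5) were apart in RPKM, at 0.90 (95% interval 0.10 to 1.69) and 0.73 (95% interval 0.05 to 1.4004). In all, 6 genes were apart in RPKM, where 23.2% of all genes lay higher, and 4 after TMM scaling, where 11% did. Bgn over Dcn overlapped under PBS, at 0.173 to 0.397 in WT and 0.386 to 0.598 in dyW, and Lum over Dcn did not, at 0.128 to 0.217 and 0.288 to 0.376.

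**Figure D3:**
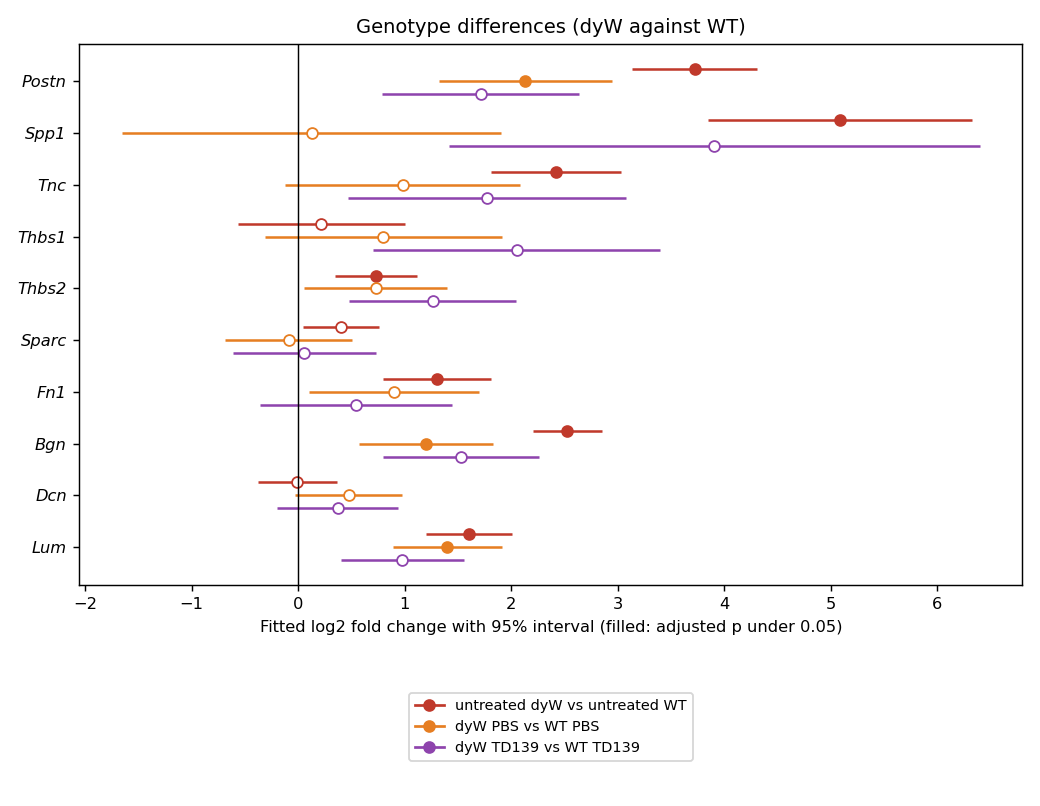
Fitted log2 fold change of dyW against WT for each gene (horizontal axis, bars are 95% intervals, filled points passed an adjusted p of 0.05) in untreated, PBS and TD139 mice. Postn is at 3.72, 2.13 and 1.71 in the 3 settings, Dcn at -0.01, 0.48 and 0.37, and Spp1 at 5.09, 0.13 and 3.90.

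Macrophage markers summed to 49.9 to 61.2 RPKM in WT PBS and 142 to 393 RPKM in dyW PBS, with 10 of 11 higher (6 without dyW PBS replicate 1, 5 without WT PBS replicate 3). Fibroblast markers summed to 321 to 332 and 424 to 631 RPKM, with 1 of 10 higher (0 without dyW PBS replicate 1 or 2, or WT PBS replicate 2 or 3, and 2 without dyW PBS replicate 3), and regenerating fibre markers to 17.96 to 31.8 and 80.4 to 127 RPKM, with 4 of 5 higher (2 without dyW PBS replicate 1, or WT PBS replicate 2 or 3). Tenocyte markers summed to 151 to 275 and 169 to 489 RPKM, and none of the 9 was called. Thbs4 among them had a mean of 44.0 RPKM in WT PBS and 176 RPKM in dyW PBS. These marker sums are in RPKM without TMM scaling, and 2.4% of all genes were called higher under PBS. The part of these markers in the members' differences was not tested. Of the related lists, 3 of 23 other matricellular genes rose under PBS: Mgp at 1.85 (SE 0.26), Thbs3 at 1.16 (SE 0.22) and Fbln7 at 1.91 (SE 0.34). Leaving out dyW PBS replicate 1 left 1 of 23. Aspn at 1.51 (SE 0.28) and Podn at 1.12 (SE 0.20) were the 2 of 12 proteoglycan genes that rose, and Kera was at -0.38 (SE 0.65). Neither rose without dyW PBS replicate 1, nor without WT PBS replicate 3, and 1 gene of this list rose without dyW PBS replicate 2 or WT PBS replicate 2. No receptor or chain synthesis gene was called by edgeR under PBS, and Cd44 was closest at 1.204 (SE 0.30, adjusted p = 0.0543). Left-out libraries and other settings gave up to 4 receptor genes and up to 1 gene of each synthesis list.

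Libraries of a group often ranked alike across the genes. In RPKM of dyW PBS, replicate 1 was the highest library for 9 of the 10 genes and replicate 3 the lowest for 9, with 1263 and 693 RPKM summed over the 10. After TMM scaling, replicate 1 was highest for 7 and replicate 3 lowest for 9. In untreated dyW, replicate 3 was highest for 6 genes in RPKM and for 4 after scaling, and replicate 1 was lowest for 6 on either scale. WT TD139 replicate 1 was the lower of its pair for 9 genes on either scale. In dyW PBS the macrophage marker sum followed the same order as the members (393, 207 and 142 RPKM in replicates 1 to 3, in the order of their numbers). The fibroblast marker sum did too in RPKM only, at 631, 620 and 424. TMM factors were 1.21 and 1.037 in replicates 1 and 2, and scaling by them would reverse the order of these replicates. The tenocyte sum was highest in replicate 2 (390, 489 and 169 RPKM), and the endothelial sum ran the other way (60.4, 64.8 and 77.2 RPKM). The part of these cells was not tested.

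**Figure D4:**
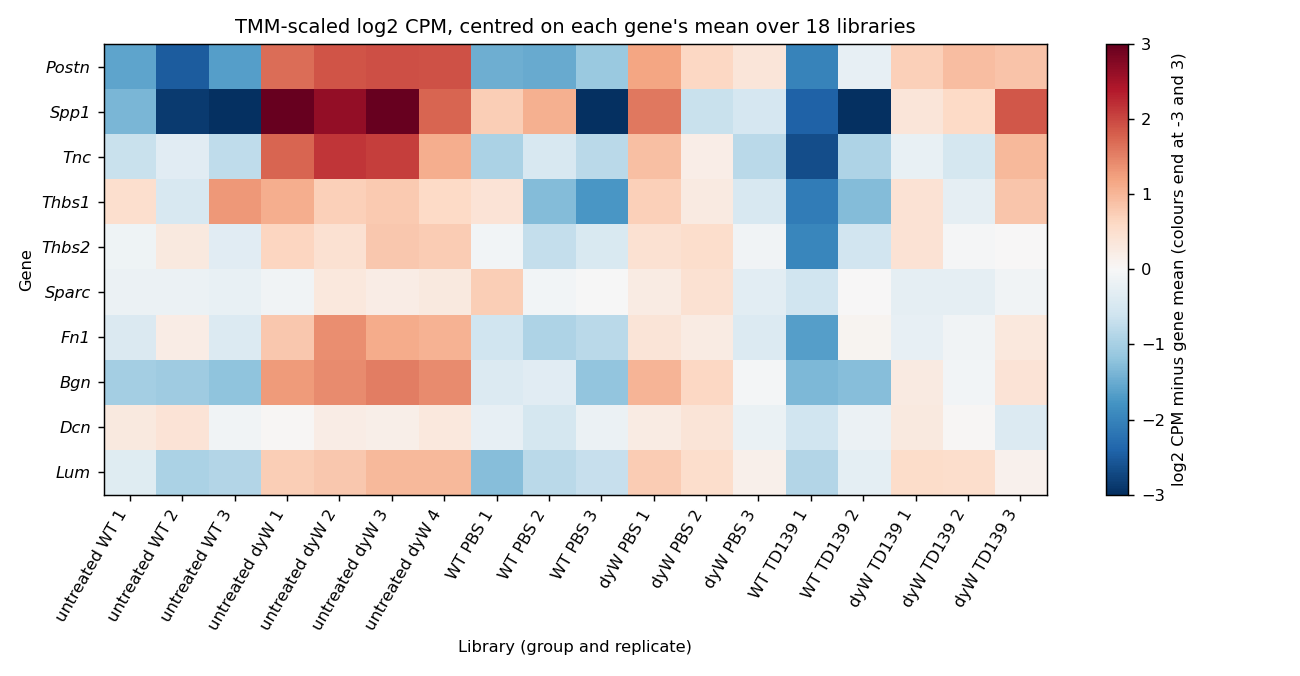
TMM-scaled log2 CPM of each gene (rows) in each of the 18 libraries (columns), centred on the gene's mean over all libraries; red is above and blue below that mean, and colours end at -3 and 3. Untreated dyW columns are red for Spp1, Postn, Tnc and Bgn, while Dcn stays between -0.60 and 0.42 and Sparc between -0.60 and 0.74.

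TD139 against vehicle asked whether inhibiting galectin-3 altered these transcripts. In dyW mice 0 of the 10 genes passed, as did 0 of 15331 genes tested (0%) by edgeR; at an unadjusted p under 0.05 there were 583 genes and none of the 10, and DESeq2 called 2 genes higher and 2 lower, none of them a member. An unadjusted p under 0.05 was found for 3.8% of all genes. Postn was at 52.1, 61.2 and 60.2 RPKM in dyW TD139, within the dyW PBS range of 40.3 to 83.8. Its log2 fold change was 0.06 (95% interval -0.71 to 0.84). Bgn was at 89.0, 70.6 and 104 RPKM and Lum at 82.8, 80.8 and 64.7 RPKM in dyW TD139, at -0.39 (95% interval -1.005 to 0.23) and -0.08 (95% interval -0.59 to 0.42). Dcn (168 to 260.5 RPKM) was at -0.17 (95% interval -0.67 to 0.33) and Sparc (319 to 371 RPKM) at -0.39 (95% interval -0.99 to 0.21). Spp1 was at 3.92, 4.72 and 11.9 RPKM and had the widest interval, 0.60 (-1.17 to 2.37). Tnc (3.85 to 11.4 RPKM), Thbs1 (4.93 to 11.1), Thbs2 (7.77 to 10.6) and Fn1 (18.6 to 29.3) were between -0.18 and 0.15. All 10 overlapped with their PBS range in RPKM, where 6.99% of all genes lay wholly higher with TD139 and 7.09% wholly lower. Macrophage markers summed to 194 to 232 RPKM and fibroblast markers to 456 to 515 RPKM in dyW TD139, and none of either list was called. Tenocyte markers summed to 144 to 252 RPKM, against 169 to 489 in dyW PBS, with a median log2 fold change of -0.96 and none of 9 called. Cartilage and bone markers summed to 0.337 to 0.561 RPKM, against 0.524 to 3.12, with a median of -1.31 and none of 6 called. The intervals of Lum and Dcn leave room for changes of at most 0.67 on the log2 scale, and those of Spp1, Tnc and Thbs1 for more than a doubling. No gene of the 5 related lists was called.

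In WT mice TD139 (n = 2) against PBS also gave 0 of the 10 genes and 0 of 15331 genes (0%) by edgeR, with 304 genes at an unadjusted p under 0.05 (1.98%), 2 of the 10 among them, and 2 higher and 1 lower by DESeq2. Spp1 was at 0.432 and 0.274 RPKM in WT TD139, where 2 of the 3 PBS libraries held more than 5 RPKM, and its log2 fold change was -3.17 (SE 1.12, unadjusted p = 0.0152, adjusted p = 1). The third PBS library, at 0.262 RPKM, was as low as the TD139 libraries. Cartilage and bone markers summed to 0.716 RPKM in both WT TD139 libraries and were highest in the PBS pair with high Spp1 (3.82 and 10.3 RPKM), with a median log2 fold change of -2.78 over 6 tested markers, none called. Bgn was at 23.2 and 24.7 RPKM, just below the lowest PBS library, at -0.72 (95% interval -1.42 to -0.01, unadjusted p = 0.0476, adjusted p = 1). In RPKM Bgn and Tnc lay wholly lower with TD139, where 6.35% of all genes did, and after TMM scaling Bgn did, where 4.23% did. Tenocyte markers also lay wholly lower, at a sum of 28.9 and 101.6 RPKM with TD139 and 151 to 275 RPKM with PBS (median log2 fold change -1.25, none of 9 called). Macrophage markers summed to 56.2 and 90.9 RPKM and fibroblast markers to 290.3 to 382.5 RPKM in WT TD139, none of them called. The part of these markers in the Spp1, Bgn and Tnc values was not tested. How the effect of TD139 differed between the genotypes was tested as an interaction, and 0 of 10 and 0 of 15331 genes (0%) passed by edgeR, with 294 genes at an unadjusted p under 0.05 (1.92%) and 1 called by DESeq2. For Spp1 this difference was 3.78 (95% interval 0.79 to 6.76, unadjusted p = 0.0176, adjusted p = 1).

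**Figure D5:**
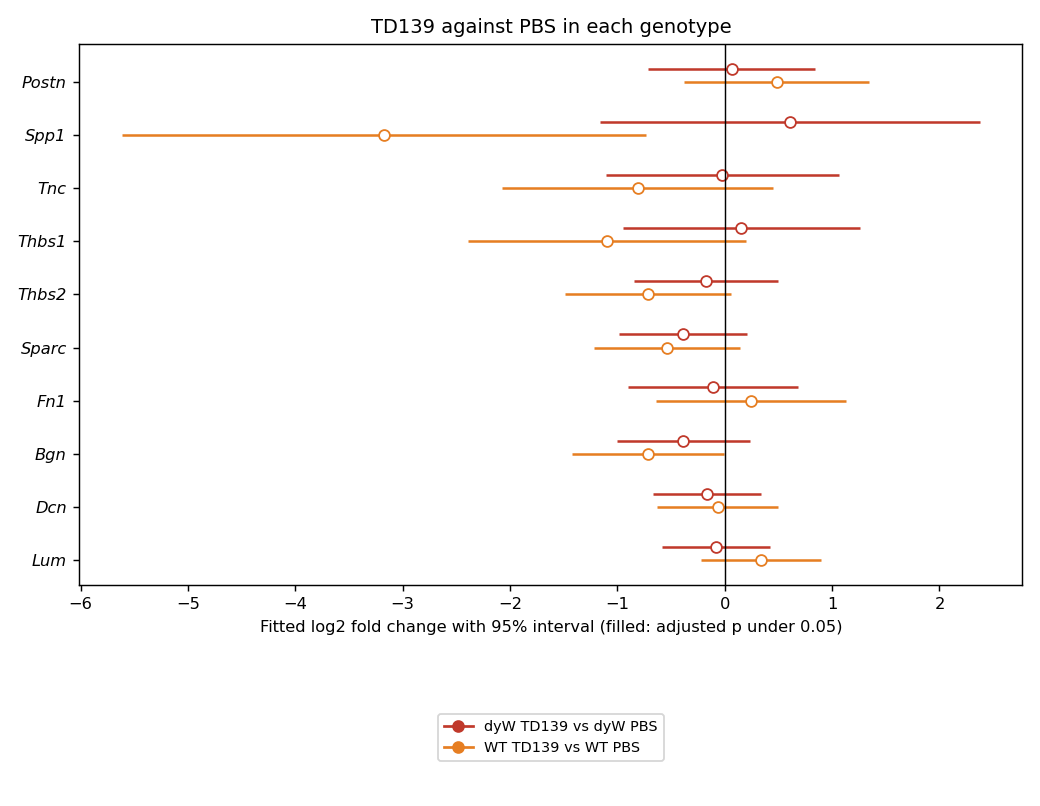
Fitted log2 fold change of TD139 against PBS for each gene (horizontal axis, bars are 95% intervals) in dyW and in WT mice; open points did not pass an adjusted p of 0.05. All points are open, and Spp1 in WT, at -3.17, has the widest interval.

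Between the genotypes under TD139, none of the 10 genes passed with edgeR, where 1.04% of 15331 genes were called (116 higher, 44 lower). All 10 log2 fold changes were above 0, 7 of them at an unadjusted p under 0.05 (15.9% of all genes were), and DESeq2 called 5. Without WT TD139 replicate 2, edgeR called 2. Bgn was closest at 1.53 (adjusted p = 0.0551), with 23.2 and 24.7 RPKM in WT TD139 and 70.6 to 104 RPKM in dyW TD139. Postn was at 1.71 (adjusted p = 0.0784), with 6.36 and 21.5 RPKM in WT. The pair of WT libraries differed more than 3-fold in Postn, Tnc (0.695 and 2.35 RPKM) and Fn1 (5.64 and 19.1 RPKM). Lum was at 0.98 (adjusted p = 0.107), Thbs2 at 1.26 (adjusted p = 0.12), Spp1 at 3.90 (adjusted p = 0.128), Thbs1 at 2.05 (adjusted p = 0.138) and Tnc at 1.77 (adjusted p = 0.178). Sparc was at 0.06 (95% interval -0.61 to 0.73), Dcn at 0.37 (95% interval -0.20 to 0.94) and Fn1 at 0.54 (95% interval -0.35 to 1.44). In RPKM 9 genes were apart, where 47.2% of all genes lay higher, and after TMM scaling 7 were, where 20% did. In RPKM limma called 519 genes higher and 33 lower, with a median of 0.33. Of the related lists, Mgp at 2.35 (SE 0.31), Thbs3 at 1.46 (SE 0.26) and Aspn at 1.79 (SE 0.32) rose in dyW TD139, as did B3gnt7, which was listed at 0 in both WT libraries. Macrophage marker sums were 56.2 and 90.9 RPKM in WT TD139 and 194 to 232 RPKM in dyW TD139. Tenocyte marker sums were 28.9 and 101.6 against 144 to 252 RPKM, of which Thbs4 alone made a mean of 18.5 and 140 RPKM. The part of these markers was not tested. These values share libraries with the comparisons of TD139 with PBS.

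The genotype difference in untreated mice was set against that under PBS in a fit of all 18 libraries, in which 1.72% of 15771 genes passed. Spp1 was the only one of the 10 past the threshold by edgeR, with a genotype effect 4.96 larger on the log2 scale in untreated mice (SE 1.13, adjusted p = 0.0428). Bgn was at 1.32 (95% interval 0.61 to 2.02, adjusted p = 0.055), Postn at 1.58 (95% interval 0.60 to 2.55, adjusted p = 0.0754) and Tnc at 1.42 (95% interval 0.09 to 2.76, adjusted p = 0.195). Lum was at 0.19 (95% interval -0.44 to 0.82), Thbs2 at -0.01 (95% interval -0.81 to 0.80) and Dcn at -0.50 (95% interval -1.10 to 0.10). Spp1 passed in 8 of 21 alternatives, and it did not pass without untreated WT replicate 2 or 3, untreated dyW replicate 2, 3 or 4, WT PBS replicate 1 or 2, or dyW PBS replicate 2 or 3 (adjusted p 0.0585 to 0.119). Over all genes edgeR called 83 higher and 189 lower, against 46 and 29 by limma on RPKM, where the median was 0.23. Cohort, age label and vehicle cannot be told apart in this difference.

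The gene with the most similar pattern was sought for each of the 10 among 10073 genes with a mean of at least 1 RPKM, as the root mean square difference of centred log2 CPM over the 18 libraries. Dcn had the closest partner, Cpq (0.14), followed by Sparc with Gpm6b (0.20), Lum with Fap, a serine protease of activated fibroblasts (0.24), Thbs2 with Fibin (0.26), Fn1 with Anxa1 (0.26) and Bgn with Tmem176a (0.29). The other distances were 0.40 for Postn with Dclk1, 0.52 for Tnc with C1qtnf3, 0.54 for Thbs1 with Fgl2 and 0.87 for Spp1 with Timp1, an inhibitor of metalloproteases. None of the 10 had another of the 10 as its nearest gene. This count is description only, since nearly all of the 10073 genes compared lay outside the 10. The closest pair among the 10 was Dcn and Sparc, at 0.36. The distance is not scaled to how much a gene varies, so genes that vary little, such as Dcn and Sparc, tend to have small distances.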

How the data were processed

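Whole quadriceps RNA of 18 mice was extracted with TRIzol and sequenced as stranded mRNA libraries on a NextSeq sequencer, per the labels' protocols. For each library and gene, the deposited files give counts of total exon reads, counts of unique exon reads and RPKM, per the file headers. RPKM was computed by the authors and is not corrected for composition. Reads were mapped to mm10, per the submitters' processing notes; the aligner and counting tool are not given in the sources used here. Deposited tables of the authors' comparisons hold log2 fold changes and FDR-adjusted p-values, and are used only where named.

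Total exon read counts were tested with edgeR 4.0.16 (R 4.3.3) by the quasi-likelihood test after TMM scaling and filterByExpr (minimum count 10, total 15), with Benjamini-Hochberg adjustment over all genes tested and a threshold of 0.05. An adjusted p without a named tool is edgeR's. The untreated cohort (7 libraries) was fitted alone, the treatment cohort (11 libraries) as 4 groups sharing a spread, and the difference of genotype effects on all 18 libraries. Library depth is given with the results. Groups called apart have no overlap between their libraries. Other settings tried were DESeq2 1.42.0, limma 3.58.1 on log2(RPKM + 0.1) and log2(RPKM + 1), RLE size factors, no filter beyond 1 read, unique reads, sex as a term, a fold cutoff, other sets of libraries and leaving out each library. All 10 members are named, and of each list up to 4 genes with the smallest p in untreated muscle and those called elsewhere. Members and lists were chosen with earlier results of these data known.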

Additional observations from a re-analysis of the deposited data

Results flagged for a closer look

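Spp1 drew attention because its genotype effect differed between the cohorts by a test of the difference itself. The fitted log2 fold change of dyW against WT was 5.09 in untreated mice and 0.13 under PBS, and the difference was 4.96 (SE 1.13, 95% interval 2.56 to 7.36, adjusted p = 0.0428 by edgeR's quasi-likelihood test). Spp1 was at most 1.04 RPKM in untreated WT but at 5.02 and 5.22 RPKM in WT PBS replicates 1 and 2, and it was at 12.3 to 34.9 RPKM in untreated dyW but at 1.96 to 10.6 RPKM in dyW PBS. Without WT PBS replicate 1 the difference was 4.73 (adjusted p = 0.0841), and without WT PBS replicate 2 it was 4.44 (adjusted p = 0.0834). Cartilage and bone markers moved with Spp1 in WT PBS, at a summed 3.82, 10.3 and 1.41 RPKM in replicates 1, 2 and 3 beside Spp1 at 5.02, 5.22 and 0.262 RPKM, and at 0.639 to 1.90 RPKM in untreated WT. The bone gene Ibsp was at 1.01 ± 1.51 RPKM (SD, n = 3) in WT PBS and listed at 0 in all untreated WT libraries. In untreated dyW the highest marker sum, 6.13 RPKM in replicate 4, stood beside the lowest Spp1, 12.3 RPKM. In dyW PBS the highest sum, 3.12 RPKM in replicate 2, stood beside the lowest Spp1, 1.96 RPKM. In dyW TD139 the sums were 0.337 to 0.561 RPKM beside Spp1 at 3.92 to 11.9 RPKM. Both were highest in replicate 3 there, and in replicate 1 of untreated WT. The part of these markers was not tested. Cohort, age label and vehicle cannot be told apart.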

How the results depend on the processing

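In untreated muscle the number of genes called among the 10 was 6 to 9 over 16 alternatives, and 7 to 8 when a library was left out. Dcn changed sign with limma on log2(RPKM + 0.1), to 0.55 (adjusted p = 0.0282), and on log2(RPKM + 1), to 0.55 (adjusted p = 0.0289). Among all genes, edgeR's 3671 higher and 3724 lower became 7636 and 1293, and 7434 and 1288, in those fits, and 2027 and 1732 with a fold cutoff of 0.5.

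For dyW PBS against WT PBS, leaving out a library gave 1 to 3 genes. Bgn there passed in 9 of 16 alternatives, Postn in 14 and Lum in 16. All-gene calls of 368 higher and 43 lower ranged from 113 and 12 (without WT PBS replicate 3) to 465 and 136 (without WT PBS replicate 1), with 123 and 6 without dyW PBS replicate 1, 166 and 11 without dyW PBS replicate 2 and 169 and 8 without WT PBS replicate 2. They were 931 and 21 with limma on log2(RPKM + 0.1), 796 and 18 on log2(RPKM + 1), 685 and 179 with DESeq2, 573 and 83 with all 18 libraries in the fit, 180 and 13 with the 2 groups alone and 135 and 5 with the fold cutoff. For dyW TD139 against WT TD139 the 0 genes called became 5 with DESeq2, 4 with limma on log2(RPKM + 0.1), 3 on log2(RPKM + 1), 3 with no filter beyond 1 read, 1 with unique reads, 4 with all 18 libraries, 3 with the 2 groups alone and 0 to 2 when a library was left out (2 without WT TD139 replicate 2). All-gene calls of 116 and 44 became 476 and 263 with DESeq2, 219 and 101 with no filter, 304 and 127 with all 18 libraries, 284 and 148 with the 2 groups alone, 519 and 33 or 274 and 22 with limma, 47 and 11 with the fold cutoff, and 4 and 2 at the lowest (without WT TD139 replicate 1). For the difference of the genotype effects between the cohorts, the 1 gene called, Spp1, became 3 with DESeq2, 2 with no filter, 0 with limma at either pseudocount, 0 with sex as a term, 0 with the fold cutoff, and 0 to 3 when a library was left out. All-gene calls of 83 higher and 189 lower were 553 and 636 with DESeq2, 91 and 130 with RLE size factors, 46 and 29 or 68 and 43 with limma, 44 and 142 with sex as a term, 1 and 0 with the fold cutoff, and 0 and 0 (without untreated WT replicate 3, untreated dyW replicate 3, or dyW PBS replicate 2 or 3) to 303 and 334 (without WT PBS replicate 3). Both TD139 comparisons and the difference between them gave 0 of the 10 genes in every alternative. Of all values of single genes under the alternatives, 1128 stayed on their side of the threshold without reversing a call, 37 newly passed it, 23 no longer did and 2, both of Dcn, turned sign and passed. Dcn, not called in untreated muscle, had the other sign in 8 of 16 alternatives. The causes were not tested.

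No paired analysis was possible because replicate numbers only name mice with separate animal numbers. Groups of 2 to 4 mice limit the precision, Spp1 rested on 16 to 61 reads in its low WT libraries, and dyW PBS replicate 1 had 15.8 M reads. Where a left-out library leaves WT TD139 with 1 mouse, that mouse is assumed to vary like the other groups.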
